A study of Mus musculus with 6 samples.

Results

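Transforming growth factor beta (TGF-beta) is a secreted signal whose 3 ligands, receptors and intracellular SMAD proteins are described here in MLE-12 cells, at the level of RNA. The genes were taken by symbol: the ligands Tgfb1, Tgfb2 and Tgfb3, the receptors Tgfbr1, Tgfbr2 and Tgfbr3, and Smad2, Smad3, Smad4 and Smad7, 10 of the 34745 genes of the expression table. MLE-12 is a mouse lung epithelial cell line immortalized with the SV40 large T antigen. In the overexpression group it was transfected with the mouse Nr4a1 reading frame in the plasmid pCMV-SPORT6, in which the strong CMV promoter drives the insert, and in the control group with the pCMV-SPORT6 vector alone, by lipid transfection in both. Each group had 3 libraries, and the time between transfection and RNA extraction is not given in the sources used here. NR4A1 is an orphan nuclear receptor and an immediate early transcription factor, and the comparison asks whether its overexpression altered the RNA of the TGF-beta signal in these cells.

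TGF-beta ligands are secreted in a latent form and released outside the cell. The active ligand binds the type II receptor TGFBR2, which recruits and phosphorylates the type I receptor TGFBR1, while the co-receptor TGFBR3 (betaglycan) presents ligand, TGF-beta 2 above all. TGFBR1 phosphorylates SMAD2 and SMAD3, which enter the nucleus with SMAD4 and act on target genes, and SMAD7 is an inhibitor that the signal itself induces. In lung the pathway is known for epithelial-mesenchymal transition, matrix deposition and fibrosis.

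The 3 ligands are paralogues, and the coding sequences of Tgfb1 and Tgfb2 were 58.8% identical, those of Tgfb1 and Tgfb3 57.5% and those of Tgfb2 and Tgfb3 62.0%. The Tgfb1 primers that the study used for RT-qPCR matched exactly 1 transcript of 1 gene and span 91 bp in exon 1 of 7. Only exact matches to transcripts were searched, so near matches and genomic DNA were not examined. Both sites are shown because they mark where the study's assay of Tgfb1 was read, and how far the 3 ligand RNAs differ over such short stretches. They are written on the coding strand of the GENCODE M21 transcripts (GRCm38), and capitals mark the bases that differ from Tgfb1 in the aligned stretch of the other ligand.
Tgfb1, forward primer site, chr7:25687960-25687979, plus strand: ccacctgcaagaccatcgac
Tgfb2, aligned stretch, chr1:186704691-186704710, minus strand: cTacctgcaGCaccCtcgac
Tgfb3, aligned stretch, chr12:86077840-86077859, minus strand: ccacTtgcaCCacGTtGgac
Tgfb1, reverse primer site, chr7:25688030-25688050, plus strand: gtccaaactaaggctcgccag
Tgfb2, aligned stretch, chr1:186704620-186704640, minus strand: gAGcaaGctGaAgctcAccag
Tgfb3, aligned stretch, chr12:86077769-86077789, minus strand: gAGcaaGctCaggctcAccag
At the forward site Tgfb2 differed from Tgfb1 at 4 bases and Tgfb3 at 6, and at the reverse site at 6 and 5. All of these stretches lie in coding sequence of exon 1.

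Over whole transcripts, 0% of the 50-base stretches of Tgfb2, Tgfb3, Tgfbr1 and all 4 SMAD genes also occurred in a transcript of another gene. The share was 0.278% for Tgfb1, 0.586% for Tgfbr2 and 3.85% for Tgfbr3, whose stretches were shared with Gm43422, a gene on the same strand that was counted at most 2 times in any library. On the opposite strand, exons of other genes covered 12.4% of the exonic bases of Tgfb3 (Gm37804 and Gm48008) and 2.14% of those of Tgfb2 (Gm29491). The kit was strand-specific, and whether the counting used strand is not given in the sources used here. On the opposite strand, Gm29491 had at most 11 counts and Gm37804 had 0 in every library. Gm48008 was not listed by that name among the counted genes, so its level is not known. In the table the genes lie on GRCm38 at chr7:25687002-25705077 (Tgfb1), chr1:186622792-186705989 (Tgfb2), chr12:86056744-86079041 (Tgfb3), chr4:47353222-47414931 (Tgfbr1), chr9:116087698-116175363 (Tgfbr2), chr5:107106570-107289629 (Tgfbr3) and chr9:63646767-63757994 (Smad3), while Smad2, Smad4 and Smad7 lie on chromosome 18.

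The total count per library ranged from 15019038 to 17574340. Nr4a1, the check of the labels, had counts of 50660, 60093 and 68555 in the NR4A1 libraries, numbered 1 to 3, and of 428, 510 and 463 in vector controls 1 to 3. Counts of the plasmid's insert and of the cells' own gene cannot be told apart. NR4A1 overexpression replicate 2 stood apart from the other 5 libraries: its score on the first principal component, which held 46.0% of the variance, was 57.4, against -20.8 to 2.24 in the others. Markers of other cell types were high in that library: 11 of 12 endothelial, 9 of 10 smooth muscle and 9 of 12 fibroblast markers had their highest level there. The summed smooth muscle markers came to 332 CPM (counts scaled to library size by edgeR's TMM method) in that library, against 6.17 to 8.05 CPM in the vector controls and 5.68 and 6.12 CPM in the other NR4A1 libraries. The endothelial sum was 142 CPM there, against 15.4 to 16.8 CPM in the vector controls and 14.9 and 18.1 CPM in the other NR4A1 libraries, and Cdh5, Cldn5, Erg, Kdr, Sox17 and Tie1 were at 0 in the other 5 libraries. The fibroblast sum was 1737 CPM there against 947 to 1070 CPM in the vector controls and 969 and 1002 CPM in the other NR4A1 libraries. Dcn, named after its values were seen, made up most of that sum in the other 5 libraries. It was at 878 CPM in NR4A1 overexpression replicate 2, 905 to 1031 CPM in the vector controls and 956 and 934 CPM in the other NR4A1 libraries. The higher sum therefore came from other markers of the list. Epithelial markers summed to 625 to 740 CPM in the NR4A1 libraries and 732 to 844 CPM in the vector controls, and alveolar type 2 markers to 267 to 289 and 290 to 301 CPM, with Sftpa1 at 0 in all 6 libraries. Most of the epithelial sum was Krt19 (398 to 570 CPM) and Krt8 (187 to 226 CPM), named after their values were seen. Epcam, named likewise, was at most 1.27 CPM. Krt18, also named likewise, was at 9.77 CPM in NR4A1 overexpression replicate 2 and at most 1.22 CPM in the others. The part of these markers in the results was not tested, and fold changes are therefore given with and without NR4A1 overexpression replicate 2.

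None of the 10 genes reached both an adjusted p under 0.05 and a difference of 2-fold or more, the threshold used here, with all 6 libraries or without NR4A1 overexpression replicate 2, in edgeR's quasi-likelihood test with Benjamini-Hochberg adjustment over all tested genes. Of all genes, 22 of 12941 tested genes (0.17%) passed with all 6 libraries and 28 of 13084 (0.214%) passed without that library. At an unadjusted p under 0.05 with a 2-fold difference or more, 161 genes (1.24%) and 0 of the 10 passed. Without a fold threshold, 1 of the 10, Smad7, had an unadjusted p under 0.05, against 836 of the tested genes (6.46%). Without NR4A1 overexpression replicate 2 none of the 10 had, against 1071 of 13084 (8.19%). DESeq2, and limma on FPKM, also called 0 of the 10. The log2 fold change was above 0 for 8 of the 10 genes and below 0 for 2, with a median of 0.03 against 0.01 over all tested genes. In 9 of the 10 genes the 95% interval of the fold change lay inside a 2-fold change in both directions, and in 8 it lay inside a 1.5-fold change. The exceptions were Tgfbr3, for both sizes, and Smad7, for the smaller one. Without NR4A1 overexpression replicate 2 the intervals of 9 genes lay inside 2-fold and those of 7 inside 1.5-fold, with Tgfbr1 as a further exception for the smaller size.

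**Figure D1:**
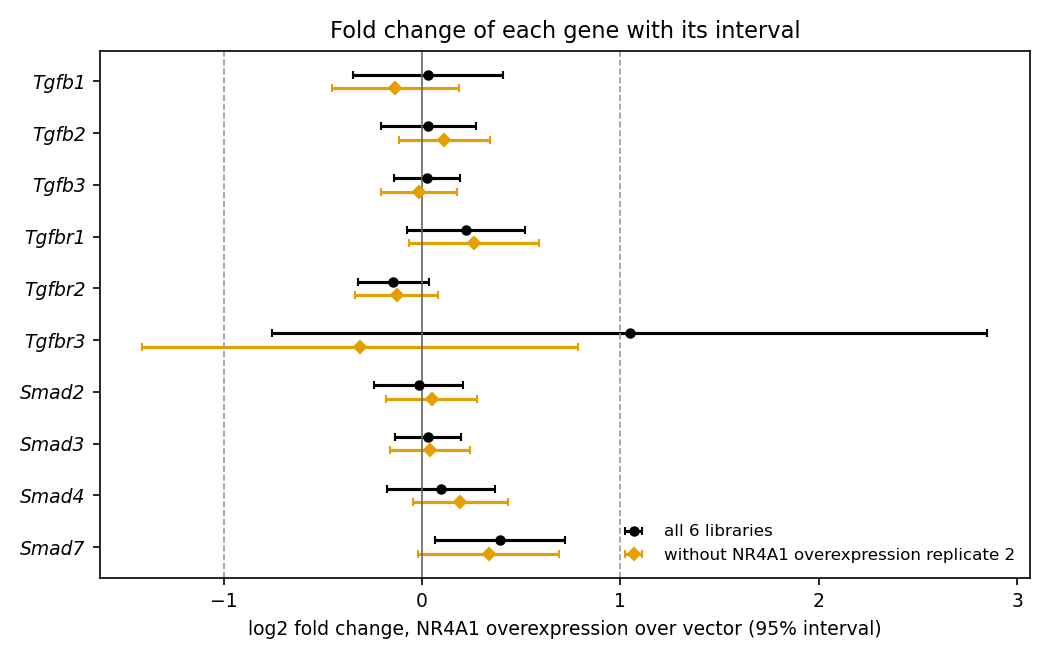
Log2 fold change of each gene (x axis, NR4A1 overexpression over vector) with an approximate 95% interval derived from edgeR's quasi-likelihood test, for all 6 libraries (black circles) and without NR4A1 overexpression replicate 2 (orange diamonds). Dashed lines mark a 2-fold change. With all 6 libraries the intervals of 9 genes stay between the dashed lines, while that of Tgfbr3 runs from -0.75 to 2.85 and its estimate moves from 1.05 to -0.31 without that library.

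The genes differed far more from each other than between the groups. In FPKM, which is scaled by gene length and can be compared between genes, the median over the 6 libraries was 53.2 for Tgfbr2, 35.9 for Tgfb3, 20.7 for Smad4, 20.1 for Smad3, 17.2 for Tgfb2, 7.39 for Smad2, 5.43 for Tgfb1, 4.65 for Tgfbr1, 1.99 for Smad7 and 0.407 for Tgfbr3. The order held within every library for Tgfbr2 above Tgfb3, Tgfb3 above Smad4, Smad3 above Tgfb2, Tgfb2 above Smad2, Tgfbr1 above Smad7 and Smad7 above Tgfbr3. Smad4 was above Smad3 in 4 of 6 libraries, Smad2 above Tgfb1 in 5 and Tgfb1 above Tgfbr1 in 5, and the ranges of these 3 pairs overlapped, so their order does not hold beyond the spread of the libraries. Across libraries the ranges of Smad3 and Tgfb2 also overlapped, as did those of Smad7 and Tgfbr3, the latter only through NR4A1 overexpression replicate 2, in which Tgfbr3 had 2.14 FPKM.

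**Figure D2:**
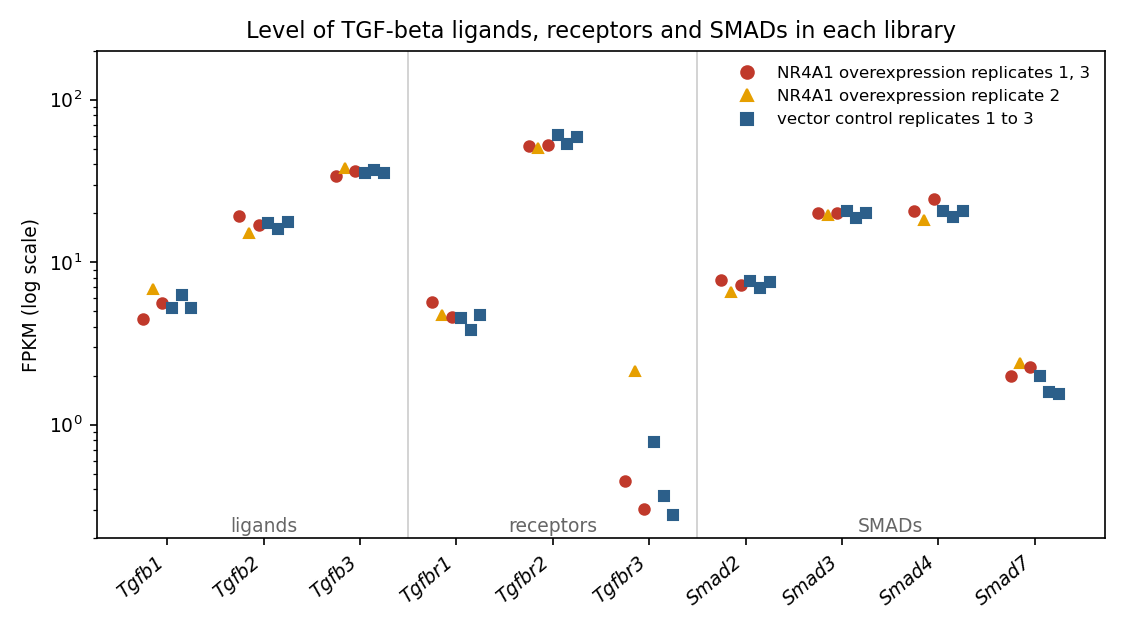
FPKM of each gene (y axis, log scale) in each of the 6 libraries, with NR4A1 overexpression replicates 1 and 3 as red circles, replicate 2 as an orange triangle and the vector controls as blue squares. The libraries of a gene lie close together for 9 genes, and Tgfbr3 in NR4A1 overexpression replicate 2, at 2.14 FPKM, stands above its other libraries at 0.277 to 0.781 FPKM.

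Tgfb1 (ENSMUSG00000002603), the ligand most studied in lung fibrosis, had counts of 381, 659 and 554 with NR4A1 and of 517, 597 and 524 with the vector, here and throughout in the order of the replicate numbers. The lowest and the highest library were both in the NR4A1 group, and the groups overlapped. The level was 32.3 ± 6.76 CPM with NR4A1 and 31.7 ± 3.36 CPM with the vector (SD, n = 3 each). The log2 fold change was 0.03 (SE 0.161, 95% interval -0.35 to 0.41, adjusted p = 0.987 in edgeR's quasi-likelihood test). Without NR4A1 overexpression replicate 2 it was -0.13 (95% interval -0.45 to 0.18, adjusted p = 0.750 from the same test). A change of more than 1.33-fold upward lay outside the interval with all 6 libraries, and one of more than 1.14-fold upward lay outside it without that library. By RT-qPCR the study reported higher Tgfb1 RNA in MLE-12 cells that overexpressed NR4A1. Its sample number differed from that of the libraries, whose time after transfection is not given. The reason for the difference between the assays was not tested.

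Tgfb2 (ENSMUSG00000039239), the ligand that depends most on the co-receptor, was counted 2623, 2341 and 2679 times with NR4A1 and 2714, 2408 and 2829 times with the vector. These counts overlapped, and its log2 fold change was 0.03 (95% interval -0.21 to 0.27, adjusted p = 0.976 in edgeR's quasi-likelihood test) and 0.11 without NR4A1 overexpression replicate 2 (adjusted p = 0.722). Tgfb3 (ENSMUSG00000021253), the ligand with the highest FPKM in these cells, was counted 1727, 2172 and 2124 times with NR4A1 and 2057, 2082 and 2113 times with the vector. Its vector controls lay between 119 and 124 CPM, and the NR4A1 libraries, at 117, 129 and 123 CPM, below, above and inside that range. Its log2 fold change was 0.02 (95% interval -0.14 to 0.19, adjusted p = 0.976 in edgeR's quasi-likelihood test) and -0.02 without NR4A1 overexpression replicate 2 (adjusted p = 0.955).

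The make-up of the ligand RNA was much the same in both groups. Tgfb3 made up 61.3 ± 2.16% of the summed ligand FPKM with NR4A1 and 61.4 ± 0.933% with the vector, Tgfb2 29.2 ± 3.99% and 29.1 ± 1.87%, and Tgfb1 9.53 ± 1.83% and 9.54 ± 0.933% (SD, n = 3 each). The share of Tgfb1 was 7.71%, 11.4% and 9.52% with NR4A1 and 9.08%, 10.6% and 8.93% with the vector, so that Tgfb1 was the smallest of the ligand RNAs in every library. The differences of the mean shares were below the SD of either group for all 3 ligands. Leaving out NR4A1 overexpression replicate 2, the NR4A1 means were 60.3% for Tgfb3, 31.1% for Tgfb2 and 8.61% for Tgfb1.

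The genes whose profile over the 6 libraries was most like that of Tgfb1 were Dpagt1, Gm10076 and Rrp7a, of 9701 genes with at least 10 CPM on average. Their root-mean-square distances to Tgfb1 were 0.029, 0.037 and 0.039 on the log2 CPM scale after each gene was centred on its own mean. In the same scale Tgfb1 itself ranged from -0.30 in NR4A1 overexpression replicate 1 to 0.31 in replicate 2, with 0.01 in replicate 3. The vector controls had -0.09, 0.17 and -0.10, so that the profile followed single libraries and not the groups.

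Tgfbr1 (ENSMUSG00000007613), the type I receptor that carries the signal to SMAD2 and SMAD3, was counted 780, 731 and 727 times with NR4A1 and 712, 576 and 756 times with the vector. After scaling, vector control replicate 2 was the lowest library at 34.4 CPM. Vector control replicate 3, at 42.8 CPM, was above NR4A1 overexpression replicate 3, at 42.0 CPM, and below NR4A1 overexpression replicates 1 and 2, at 52.7 and 43.5 CPM. Tgfbr1 had a log2 fold change of 0.22 (SE 0.126, 95% interval -0.07 to 0.52, adjusted p = 0.834 in edgeR's quasi-likelihood test), and 0.26 without NR4A1 overexpression replicate 2 (adjusted p = 0.633). Tgfbr2 (ENSMUSG00000032440), the type II receptor that binds ligand, was counted 3705, 4084 and 4384 times with NR4A1 and 5001, 4250 and 4988 times with the vector. After scaling, all 3 NR4A1 libraries, at 250.5, 243 and 253.3 CPM, lay below all 3 vector controls, at 289, 253.6 and 282.5 CPM. The gap between NR4A1 overexpression replicate 3 and vector control replicate 2 was narrow. For Tgfbr2 the log2 fold change was -0.14 (SE 0.0754, 95% interval -0.32 to 0.03, adjusted p = 0.829 from the same test), and -0.13 without NR4A1 overexpression replicate 2 (adjusted p = 0.676).

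The estimates for Tgfbr1 and Tgfbr2 had opposite signs, and the ratio of Tgfbr2 to Tgfbr1 in FPKM separated the groups. It was 9.06, 10.7 and 11.5 with NR4A1 and 13.4, 14.1 and 12.6 with the vector, or 10.4 ± 1.24 and 13.4 ± 0.746 (SD, n = 3 each), and the NR4A1 mean was 10.3 without replicate 2. This ratio is 1 of 5 ratios between the receptor and SMAD genes that were computed. The ratio of Smad7 to the sum of Smad2 and Smad3 also separated the groups, and the others overlapped. The ratio of Tgfbr2 to Tgfbr1 was given no test of its own, and neither of its genes passed the threshold.

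Tgfbr3 (ENSMUSG00000029287), the co-receptor betaglycan, was the gene in which 1 library decided the value. Its counts were 53, 283 and 41 with NR4A1 and 105, 47 and 38 with the vector. The highest count was in NR4A1 overexpression replicate 2, the next in vector control replicate 1, and the other 4 libraries had 38 to 53. In CPM, NR4A1 overexpression replicate 2 (16.9) was 2.77-fold above vector control replicate 1 (6.08). Its fitted log2 fold change was 1.05 (SE 0.766, 95% interval -0.75 to 2.85, adjusted p = 0.888 in edgeR's quasi-likelihood test). Without that library the direction turned, to -0.31 (95% interval -1.41 to 0.79, adjusted p = 0.828 from the same test). NR4A1 overexpression replicate 2 and vector control replicate 1 were also the libraries with the most counts of collagen genes of the fibroblast list: Col1a2 was counted 4504 and 284 times in them and 10 to 45 times in the other 4, and Col3a1 991 and 125 times against 10 to 32. Not all of that list did so. Dcn had its lowest level in NR4A1 overexpression replicate 2 (878 CPM), and Lum and Fbln1 were not highest there. The part of these cell type markers in the Tgfbr3 value was not tested, and a change in the share of a cell type and a change in the RNA per cell cannot be told apart in bulk libraries.

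Of the 10 genes, Tgfbr3 alone was at least 2-fold higher in NR4A1 overexpression replicate 2 than in every other library, against 282 of the 12941 tested genes (2.18%). None of the 10 was at least 2-fold above all other libraries in any of the other 5 libraries, in which 3 to 9 of the tested genes were. The remaining 9 genes were between 0.742-fold (Smad4) and 1.10-fold (Tgfb1) of the highest other library in NR4A1 overexpression replicate 2.

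Smad2 (ENSMUSG00000024563) and Smad3 (ENSMUSG00000032402), which carry the signal from the receptor, were even across the libraries. Smad2 was counted 613, 579 and 659 times with NR4A1 and 693, 600 and 695 times with the vector, with a log2 fold change of -0.02 (95% interval -0.24 to 0.21, adjusted p = 0.987 in edgeR's quasi-likelihood test) and 0.05 without NR4A1 overexpression replicate 2 (adjusted p = 0.877). Smad3 was counted 1732, 1904 and 2001 times with NR4A1 and 2033, 1785 and 2031 times with the vector. Its NR4A1 libraries lay between 113 and 117 CPM, inside the vector control range of 106.5 to 118 CPM, and its log2 fold change was 0.03 (95% interval -0.14 to 0.19, adjusted p = 0.973 from the same test) and 0.04 without NR4A1 overexpression replicate 2 (adjusted p = 0.883). Smad3 had more RNA per length than Smad2 in every library, with a ratio of 2.79 ± 0.212 with NR4A1 and 2.70 ± 0.0254 with the vector (SD, n = 3 each), and 2.68 with NR4A1 when replicate 2 was left out.

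Smad4 (ENSMUSG00000024515), the partner shared with the bone morphogenetic protein branch of the family, was counted 1780, 1757 and 2441 times with NR4A1 and 2024, 1802 and 2085 times with the vector. NR4A1 overexpression replicate 3 was the highest library at 141 CPM and NR4A1 overexpression replicate 2 the lowest at 105 CPM, with vector controls of 107.5 to 118 CPM between them. The log2 fold change was 0.09 (95% interval -0.18 to 0.37, adjusted p = 0.944 in edgeR's quasi-likelihood test), and 0.19 without NR4A1 overexpression replicate 2 (95% interval -0.04 to 0.43, adjusted p = 0.625). In that 5-library comparison NR4A1 overexpression replicates 1 and 3 lay above all vector controls, while with all 6 libraries the groups overlapped. In 27.6% of the tested genes these 2 libraries were both above or both below all vector controls.

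Smad7 (ENSMUSG00000025880), the inhibitor that feeds back on the receptor, had the smallest unadjusted p of the 10 genes. It was counted 231, 312 and 304 times with NR4A1 and 266, 203 and 211 times with the vector, or 15.6, 18.6 and 17.6 CPM against 15.4, 12.1 and 11.95 CPM. All 3 NR4A1 libraries were above all 3 vector controls after scaling, with NR4A1 overexpression replicate 1 just above vector control replicate 1. In the fit the log2 fold change was 0.39 (SE 0.139, 95% interval 0.06 to 0.72), a 1.31-fold difference with an interval of 1.05 to 1.65, with unadjusted p = 0.0251 and adjusted p = 0.673 in edgeR's quasi-likelihood test. Without NR4A1 overexpression replicate 2 it was 0.34 (95% interval -0.02 to 0.69, unadjusted p = 0.0617, adjusted p = 0.608 from the same test). In FPKM, the ratio of Smad7 to the sum of Smad2 and Smad3 was 0.0713, 0.0912 and 0.0829 with NR4A1 and 0.0707, 0.0617 and 0.0561 with the vector, and the NR4A1 mean without replicate 2 was 0.0771. These ranges do not overlap, and the lowest NR4A1 value and the highest vector control differ by less than the SD of either group. This ratio, too, was given no test of its own.

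Groups that do not overlap were not rare in this table. NR4A1 libraries lay all above or all below the vector controls in 1671 of the 12941 tested genes (12.9%), and among the 10 genes this held for 2, Tgfbr2 with lower and Smad7 with higher values in the NR4A1 libraries.

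**Figure D3:**
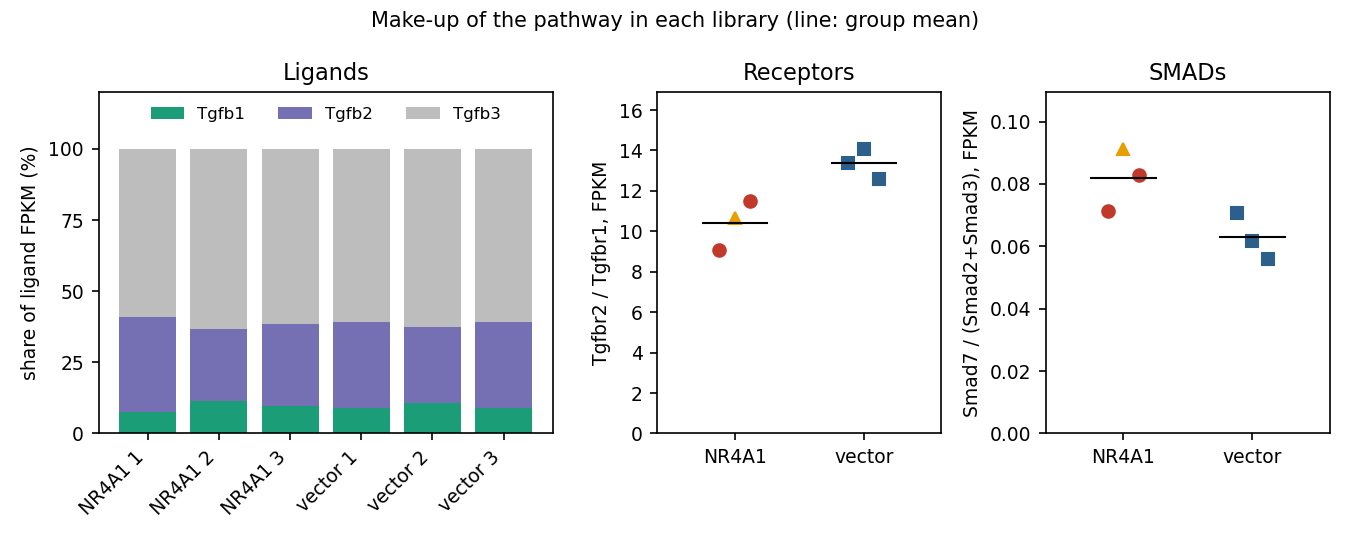
Left, share of Tgfb1, Tgfb2 and Tgfb3 in the summed ligand FPKM of each library (y axis, percent). Centre and right, the FPKM ratios of Tgfbr2 to Tgfbr1 and of Smad7 to the sum of Smad2 and Smad3 by group, with 1 point a library (symbols as in the plot of levels) and a line at the group mean. The ligand shares are alike, and neither drawn ratio overlaps between the groups. The other ratios that were computed (Tgfbr3 to Tgfbr2, Smad3 to Smad2, and Smad4 to the sum of Smad2 and Smad3) are not drawn, and each overlaps between the groups.

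The other genes of the pathway were taken from a list of 63, of which 52 were tested. None passed the same threshold with all 6 libraries or without NR4A1 overexpression replicate 2, in edgeR's quasi-likelihood test. With all 6 libraries 37 of the 52 had a log2 fold change above 0 and 15 below, with a median of 0.11. Without that library 29 were above 0 and 23 below, with a median of 0.07, against -0.00 over all tested genes. At an unadjusted p under 0.05 there were 6 of 52 (11.5%) in each case, against the 6.46% and 8.19% of all tested genes given above. In NR4A1 overexpression replicate 2, 11 of the 52 (21.2%) had at least 2-fold the level of any other library, against 2.18% of all tested genes. In each of the other 5 libraries 0 of the 52 did. The list was chosen with earlier results of these data known, and it holds genes such as Col1a1, which is also a fibroblast marker. The higher share therefore cannot be read as a trait of the pathway.

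Of the 7 tested genes of latency and activation, which bind, store or release the ligand, 4 had a log2 fold change above 0 and 3 below. Ltbp3, a binding protein of latent TGF-beta and the gene of this group with the highest FPKM, had a log2 fold change of -0.18 (adjusted p = 0.809 in edgeR's quasi-likelihood test) and -0.16 without NR4A1 overexpression replicate 2. Ltbp1, another binding protein and the gene with the largest change, was counted 14, 474 and 15 times with NR4A1 and 57, 11 and 2 times with the vector. Its log2 fold change of 2.88 (adjusted p = 0.829 from the same test) turned to -0.58 without NR4A1 overexpression replicate 2. Thbs1, thrombospondin 1, an activator of latent TGF-beta that is named after its values were seen, had 8.23-fold the level of the highest other library in NR4A1 overexpression replicate 2 (log2 fold change 1.97, adjusted p = 0.761 from the same test, and 0.19 without that library). Like Tgfbr3, Ltbp1 had its highest count in that library and its next highest in vector control replicate 1.

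Other ligands of the superfamily had 4 values above 0 and 2 below among the 6 tested. Bmp1, which has the name of a ligand and is a procollagen protease, was at 96.9 to 123 FPKM and had a log2 fold change of -0.17 (adjusted p = 0.784 in edgeR's quasi-likelihood test) and -0.20 without NR4A1 overexpression replicate 2. Inhba, the activin A subunit, was counted 261, 277 and 277 times with NR4A1 and 223, 108 and 198 times with the vector, and the groups did not overlap after scaling. Its log2 fold change of 0.71 (95% interval 0.15 to 1.28, unadjusted p = 0.0206, adjusted p = 0.665 from the same test) was 0.72 without NR4A1 overexpression replicate 2.

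Among 7 tested receptors of the superfamily, 6 values were above 0 and 1 was below. Bmpr1a, a type I receptor for bone morphogenetic proteins with the highest FPKM of this group, had a log2 fold change of 0.04 (adjusted p = 0.974 in edgeR's quasi-likelihood test) and 0.15 without NR4A1 overexpression replicate 2. Eng, endoglin, an endothelial co-receptor for TGF-beta, was counted 11, 594 and 22 times with NR4A1 and 22, 13 and 16 times with the vector. Its level in NR4A1 overexpression replicate 2 was 27.8-fold above the highest other library, and its log2 fold change of 3.65 (adjusted p = 0.733 from the same test) became 0.04 without that library.

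The 7 tested SMADs and adaptors beyond the members above had 4 values above 0 and 3 below. All 7 lay between -0.13 and 0.25 on the log2 fold change scale, where Hgs, an endosomal adaptor, had -0.13 and Smad9 had 0.25 (adjusted p = 0.875 and 0.818 in edgeR's quasi-likelihood test). These values were -0.17 and 0.28 without NR4A1 overexpression replicate 2. The 11 inhibitors had 7 values above 0 and 4 below. Ppm1a, a phosphatase for which the SMADs are a known substrate, had a log2 fold change of -0.14 (adjusted p = 0.834 in edgeR's quasi-likelihood test) and -0.11 without NR4A1 overexpression replicate 2. Ski, a repressor that binds SMADs, was counted 2701, 2946 and 1521 times with NR4A1 and 3466, 3179 and 3424 times with the vector, with a log2 fold change of -0.39 (adjusted p = 0.859 from the same test) and -0.53 without NR4A1 overexpression replicate 2. In CPM the NR4A1 libraries, at 183, 175.5 and 87.9, were below the vector controls at 190 to 201, and replicate 3 was far below the other NR4A1 libraries. Bambi, a decoy receptor named after its values were seen, had a log2 fold change of 0.36 (unadjusted p = 0.0184, adjusted p = 0.644 from the same test) and 0.35 without NR4A1 overexpression replicate 2, with higher values in all 3 NR4A1 libraries.

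The transcriptional targets were the group that differed most with the library. The list does not sort them by whether the signal raises or lowers them, so counts of direction do not measure its output. Of 14 tested, 12 had a log2 fold change above 0 and 2 below, with a median of 0.68. Without NR4A1 overexpression replicate 2, 5 were above 0 and 9 below, with a median of -0.17. That library held at least 2-fold the level of any other for 8 of the 14, among them Col1a1, Timp1, Id2, Ctgf, Fn1, Cdkn1a and Id3, all but Col1a1 named after their values were seen. Col1a1, a collagen chain that is also on the fibroblast marker list, was counted 99, 4189 and 84 times with NR4A1 and 303, 103 and 124 times with the vector. Its log2 fold change of 3.09 (adjusted p = 0.801 in edgeR's quasi-likelihood test) turned to -0.83 without that library. Ctnnb1, beta-catenin, is on this list and is a gene that the study measured for epithelial-mesenchymal transition. Whether the TGF-beta signal sets its RNA was not tested. It had the highest FPKM of the list and a log2 fold change of 0.15 (adjusted p = 0.921 from the same test) and 0.17 without that library.

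Cdkn1a, the cell cycle inhibitor p21, is named after its values were seen, as the gene of the list nearest to the threshold. It was counted 643, 1788 and 826 times with NR4A1 and 492, 496 and 486 times with the vector. All NR4A1 libraries were above all vector controls, by the widest margin in NR4A1 overexpression replicate 2. Its estimate was 1.21 on the log2 scale (SE 0.332, adjusted p = 0.460 in edgeR's quasi-likelihood test), and 0.68 without that library (adjusted p = 0.0499 from the same test), where the fold change is below 2. DESeq2 with all 6 libraries gave it an adjusted p of 0.00726. Cdh1, E-cadherin, also named after its values were seen, was counted 460, 439 and 514 times with NR4A1 and 602, 599 and 605 times with the vector. Its log2 fold change was -0.27 (95% interval -0.48 to -0.06, unadjusted p = 0.0181, adjusted p = 0.639 in edgeR's quasi-likelihood test) and -0.20 without NR4A1 overexpression replicate 2.

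**Figure D4:**
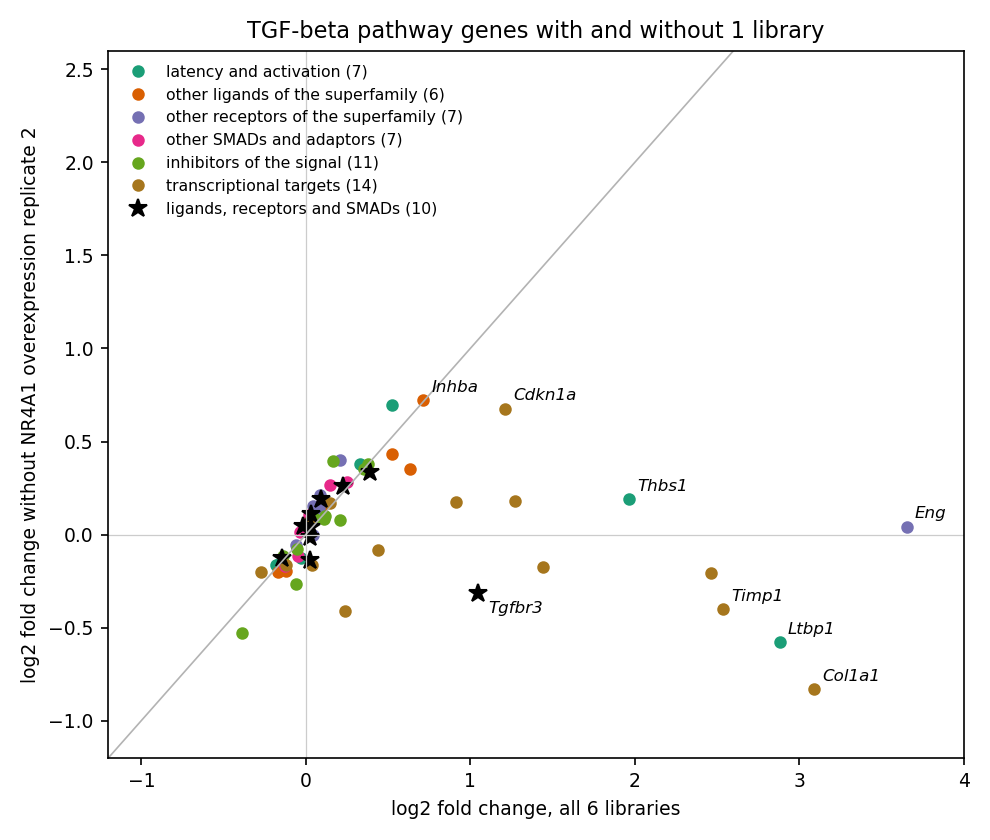
Log2 fold change with all 6 libraries (x axis) against that without NR4A1 overexpression replicate 2 (y axis) for the 52 tested pathway genes, coloured by role, and the 10 ligands, receptors and SMADs as black stars, with a line at equal values. Tgfbr3, Eng, Col1a1, Ltbp1, Timp1 and Thbs1 lie far to the right of the line, while the 9 other stars lie near it.

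Of the 63 pathway genes 11 were not tested because of low counts. Ltbp2, Lrrc32 and Acvrl1, named after their counts were seen, had 2815, 885 and 198 counts in NR4A1 overexpression replicate 2 and at most 7, 16 and 6 in any other library. LTBP2 is a matrix protein of the latent TGF-beta binding family, LRRC32 holds latent TGF-beta at the cell surface, and ACVRL1 is an endothelial type I receptor.

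NR4A1 is known to bind as a monomer to the NBRE motif, which was searched on both strands as AAAGGTCA in RefSeq promoter windows of 300 bases (GRCm38.p6). Of 32851 windows 1.51% held it. The 10 genes had 6 windows in that collection, for Tgfb1, Tgfb2, Tgfbr1, Tgfbr2 and Smad3, and 0 of the 6 held these letters. With 1.51% of all windows holding them, 0 is the usual result for any 6 windows. The search therefore cannot decide whether NR4A1 binds near these genes. Tgfb3, Tgfbr3, Smad2, Smad4 and Smad7 had no window, and sites with other letters were not searched.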

How the data were processed

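RNA from 3 NR4A1 overexpression and 3 vector control libraries of MLE-12 cells was analysed, grouped by the submitters' labels. The authors deposited a read count per gene and library, not normalized, and an FPKM value (scaled by gene length and by library total) per gene and library. The submitters' processing notes name HISAT2 2.0.4 and GRCm38.p4, and the counting program and annotation are not given in the sources used here. Counts were scaled by TMM, filtered with filterByExpr and compared with the quasi-likelihood test of edgeR 4.0.16 (R 4.3.3), with Benjamini-Hochberg adjustment over all tested genes. Alternatives used DESeq2 1.42.0 and limma 3.58.1. Nothing in the labels says that libraries came from separate cultures, so p-values measure only the spread between these libraries, which may be technical. No libraries of a group agreed within sampling noise (chi-square per degree of freedom 9.75 to 42.7). The genes and lists were chosen with earlier results of these data known. Named were all 10 genes, the pathway genes past the threshold, otherwise for each role the tested gene with the highest mean FPKM and that with the largest absolute log2 fold change, the 3 profiles nearest to Tgfb1, and Nr4a1. Other genes are marked in the text where named. On simulated counts, 89.5% of 200 genes changed 4-fold and 75.5% of those changed 2.5-fold were recovered with all 6 libraries, and 90.5% and 81.5% without NR4A1 overexpression replicate 2. Coding sequences were aligned with MAFFT 7.526. Of 34267 gene identifiers also in GENCODE M21, 27682 (80.8%) had the same locus. Ctgf is the table's name for Ccn2. Immune markers were summed too, at 8.05 to 10.2 CPM with NR4A1 and 7.25 to 10.6 CPM with the vector. A gene of the pathway list is not reported by name.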

Additional observations from a re-analysis of the deposited data

How the results depend on the processing

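The count of ligands, receptors and SMADs past the threshold was 0 under every alternative: DESeq2, no count filter, edgeR scaled by median-ratio factors or by totals alone, the replicate block, an unadjusted p, no fold threshold, limma on log2(FPKM + 1) and each library left out in turn. Of 119 single-gene values from the alternatives that refit the data, leaving out those that change only the threshold, 106 kept their direction and 13 did not, and the cause was not tested. With limma on log2(FPKM + 1), where Tgfbr3 was not tested because of its low FPKM, the log2 fold change of Tgfb1 was -0.0066 in place of 0.03. With each library left out in turn, the log2 fold change ran from -0.13 to 0.17 for Tgfb1, from -0.063 to 0.11 for Tgfb2, from -0.015 to 0.059 for Tgfb3, from -0.31 to 1.62 for Tgfbr3, from -0.083 to 0.048 for Smad2, from -0.013 to 0.058 for Smad3 and from -0.030 to 0.19 for Smad4. Over all alternatives it stayed between 0.12 and 0.29 for Tgfbr1, between -0.20 and -0.11 for Tgfbr2 and between 0.25 and 0.52 for Smad7, whose adjusted p ran from 0.528 to 0.996. Among pathway genes, 1 passed with DESeq2 (Cdkn1a) and 3 with an unadjusted p (Thbs1, Eng and Cdkn1a), against 0. Over all genes the count of 22 became 73 with DESeq2, 161 with an unadjusted p, 7 with limma on log2(FPKM + 1) and 3 to 28 with each library left out. It was 4 without NR4A1 overexpression replicate 1, 3 without NR4A1 overexpression replicate 3 and 6 without vector control replicate 1, 2 or 3.

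The replicate numbers are shared between the groups, and after centring on the group, libraries with the same number correlated across genes at -0.011, -0.046 and 0.246, with 1 of 3 libraries closest to its own number, so the numbers were not taken to pair the samples. With the replicate block, 5 genes of the whole table passed, 0 of the pathway list and 0 of the ligands, receptors and SMADs, where Tgfbr3 had a log2 fold change of 0.65 and Smad7 of 0.40.

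With 3 libraries a group, the interval of each gene gives the sizes of change that the data allow, and recovery of changes smaller than 2.5-fold was not simulated. The counts concern RNA, and say nothing of secreted or active ligand, receptor protein or SMAD phosphorylation. Tgfbr3 had few counts in 5 of the 6 libraries. Intervals come from the spread between these libraries.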

Other observations

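Ltbp4, which encodes a binding protein of latent TGF-beta, has 2 rows in the table. The row of the long gene had counts of 2304, 2737 and 3155 with NR4A1 and of 3276, 3050 and 3478 with the vector. The other row, on the same strand and inside the locus of the long gene, was counted 79 times in NR4A1 overexpression replicate 1, 72 times in vector control replicate 2 and 0 times in the other 4 libraries.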
